A study of Mus musculus with 5 samples.

Results

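Cycling epithelial cells were taken from single-cell RNA counts of dissociated whole mouse lungs at E18.5, and 175 of them were found among 2496 epithelial cells and 19491 kept cells. A kept cell had at least 500 genes and at most 15% mitochondrial unique molecular identifiers (UMIs, each standing for 1 captured RNA molecule). It counted as epithelial with UMIs of at least 2 of the 6 genes Epcam, Cdh1, Nkx2-1, Cldn7, Krt8 and Krt18, and with none of Ptprc, Cdh5, Pecam1 and Pdgfra, which mark immune, endothelial and mesenchymal cells. It counted as cycling with at least 1 UMI of Mki67 and at least 1 of Top2a. Per the labels, 2 embryos were Zswim8+/- (Het, replicates 1 and 2) and 3 were Zswim8-/- (KO, replicates 1 to 3), and each gave 1 library. Libraries are called Het1, Het2, KO1, KO2 and KO3, and values of a group are listed in that order. No Zswim8+/+ lung was analysed here, so the control embryos also lack 1 Zswim8 allele, and the sources used here do not give the strain or the part of the gene that is deleted. The comparison asks whether loss of the remaining allele goes with a different number, or different genes, of dividing epithelial cells.

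Dividing cells copy their DNA in S phase and separate it in G2 and M phase. Mki67 encodes the nuclear protein Ki-67, and Top2a encodes the topoisomerase that untangles replicated DNA, and both are switched on mainly in late S, G2 and M phase. Near birth, division in the lung epithelium slows while distal cells become surfactant-making alveolar type 2 cells or flat alveolar type 1 cells, and airway cells become secretory or multiciliated. Zswim8 is an adaptor of a ubiquitin ligase that removes Argonaute when a trigger RNA pairs with its microRNA, so that the microRNA decays. The microRNAs miR-322 and miR-503, of the wider miR-16 family, are among those known to be removed this way, and they repress cyclins and other genes of G1.

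The mature microRNAs are shown because a list of 9 known cell-cycle targets of this family is described below, and their seeds (bases 2 to 8) are in capitals. The sequences are RefSeq's (GRCm38.p6), and miR-322 and miR-503 lie beside each other on chromosome X.
mmu-miR-16-5p: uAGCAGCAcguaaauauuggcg
mmu-miR-322-5p: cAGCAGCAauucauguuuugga
mmu-miR-503-5p: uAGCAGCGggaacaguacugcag
The seeds of the first pair were identical (AGCAGCA), and that of miR-503-5p read AGCAGCG.

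Genes of G2 and M phase are known to carry a cell-cycle homology region (CHR) near their start, and S phase genes a site for E2F factors. Promoters are shown because the members were chosen by 2 genes of the G2 and M programme. RefSeq promoters (GRCm38.p6, 250 bases before to 50 after the start) were found for 46 of the 53 genes of the G2 and M phase list and 31 of the 43 of the S phase list. The CHR letters TTTGAA, searched on both strands, were present for 33 of the 46 G2 and M genes (71.7%), 5 of the 31 S phase genes (16.1%) and 20.2% of all 27025 genes. The E2F letters TTTCCCGC, TTTGGCGC, TTTCGCGC or TTTGCCGC, on both strands, were present for 14 of the 31 S phase genes (45.2%), 3 of the 46 G2 and M genes (6.52%) and 2.6% of all genes. A match describes the letters only. The windows of 30 bases below hold 1 CHR match each in capitals, for the rule's own pair of genes and for Cdk1, the kinase that drives mitosis, and its cyclin Ccnb2.
Top2a (chr11:99024201-99024230, minus strand, 23 bases before the start): gggcgggctagataaaggTTCAAAtgaaac
Mki67 (chr7:135716466-135716495, minus strand, 98 bases before the start): tttgaaccgccgttttggTTTGAAtcgggc
Cdk1 (chr10:69352916-69352945, minus strand, 15 bases before the start): gagctttaccgcggcgagTTTGAAactgct
Ccnb2 (chr9:70421710-70421739, minus strand, 167 bases before the start): taatatcagggactagaaTTTGAAaataag
The Top2a window reads the reverse complement TTCAAA, and the others read TTTGAA on the gene's own strand. The Mki67 window opens with another TTTGAA, left in lower case.

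The libraries held 56608582 to 93708304 UMIs. From Xist, KO1 and KO2 were female and the other 3 libraries male, so sex and genotype overlapped in part. Zswim8 stood at 44.6 and 41.5 CPM (UMIs scaled to a common library total) in Het members, against 40.1, 44.8 and 49.0 CPM in KO members. The groups overlapped, and counts from the 3′ end check no label where the deleted part is not known. Pairs of libraries shared 269 barcodes as deposited and 34 among kept cells, and 2 members had a barcode that another library also held. The labels name separate embryos, and p-values measure the spread between these few.

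Members were far deeper than other epithelial cells. Members had a median of 44001 and 54009 UMIs in Het and of 44581.5, 42648 and 31183.5 UMIs in KO. Other epithelial cells had 8932 and 10756 in Het and 6884, 11044.5 and 13120 in KO. At the edge of the rule, 24 members had exactly 1 UMI of each gene, and 463 epithelial cells just outside had UMIs of 1 of the pair, 307 of Top2a and 156 of Mki67. In 130 members all 6 epithelial genes were found and in 19 only 2, while 45 cycling cells with a single epithelial gene fell outside. A further 661 cycling cells with at least 2 epithelial genes were left out because they held a UMI of an excluding gene. Red-cell barcodes (over 50% haemoglobin UMIs and under 500 genes), which should hold neither transcript, had both in 0.0477% to 0.19% of cases at a median of 2328 to 2622.5 UMIs. Members were far deeper than these barcodes, so the rates are a description only and cannot be set against the cycling share. Taken singly, Mki67 was found in 2.57% to 3.7% of red-cell barcodes and Top2a in 1.26% to 2.9%. How many members were let in by a stray UMI of 1 gene was not tested.

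The epithelial label did not hold equally for all members. Cutoffs chosen after the data were seen split them by markers into 29 mesenchymal-marked cells (at least 20 per 10000 UMIs from 10 mesenchymal genes), 62 airway-marked cells (at least 3 of 10 ciliated genes, or 20 per 10000 UMIs from 9 airway secretory genes) and 84 with neither mark. Of the mesenchymal-marked members 2 had all 6 epithelial genes, 9 had Epcam, and 21 carried at least 2 mesothelial genes. Their markers therefore went against the epithelial name, and the keratins Krt8 (24 of 29) and Krt18 (25 of 29) were the genes that let most of them in. All 6 epithelial genes were found in 56 of the 62 airway-marked and 72 of the 84 neither-marked members. Within a factor of 2 of the cutoff of 20 per 10000 lay 5 members for the mesenchymal genes and 8 for the airway genes. At least 3 genes of the immune, the endothelial or the mesenchymal list were found in 80.8% and 82.6% of Het and 70.6%, 64.3% and 72.0% of KO members, and 9 members scored as doublets. A neither-marked KO3 member held 2753 UMIs of S100a8 and 2722 of S100a9, neutrophil granule genes, of 19970 in all, with 64 of Sftpc.

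The makeup of the members differed between the groups. Neither-marked cells numbered 3 and 6 in the Het libraries against 16, 25 and 34 in the KO libraries, which was 18.4% of Het and 59.5% of KO members. Airway-marked members numbered 15 and 10 against 12, 12 and 13, or 51.0% of Het and 29.4% of KO members. Mesenchymal-marked members numbered 8 and 7 against 6, 5 and 3. Each Het library therefore had fewer neither-marked than airway-marked members, and each KO library more. Among all epithelial cells, 60.6% in Het and 63.8% in KO were neither-marked. Airway-marked cells were 30.0% and 20.5% of them, and mesenchymal-marked cells 9.41% and 15.7%.

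**Figure D1:**
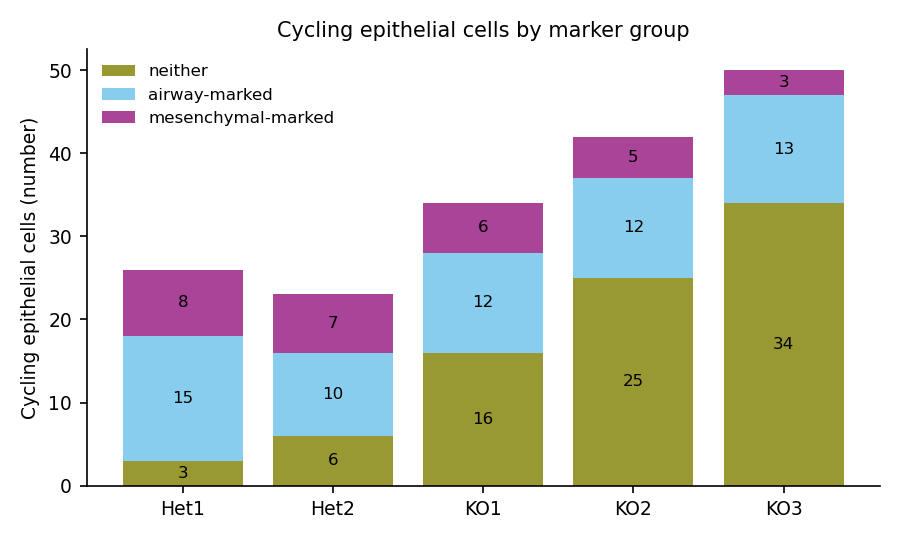
Number of cycling epithelial cells in each library (bars), stacked by marker group. Neither-marked cells number 3 and 6 in the Het libraries and 16 to 34 in the KO libraries, while airway-marked cells number 10 to 15 in all 5.

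Cycling cells made up a larger part of the epithelium in the KO libraries. They were 26 of 731 epithelial cells in Het1 (3.56%, Wilson 95% interval 2.44 to 5.16) and 23 of 566 in Het2 (4.06%, 2.72 to 6.02). In the KO libraries they were 34 of 443 in KO1 (7.67%, 5.54 to 10.5), 42 of 342 in KO2 (12.3%, 9.22 to 16.2) and 50 of 414 in KO3 (12.1%, 9.28 to 15.6). All 3 KO libraries lay above both Het libraries, and the intervals cover counting error only. The Het mean was 3.81% ± 0.358 (SD, n = 2). The KO mean was 10.7% ± 2.6 (SD, n = 3), 2.8 times as high, with a two-sided exact permutation p of 0.2. With 2 against 3 libraries the exact test cannot go below 0.1, so no share could pass a threshold of 0.05.

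Depth was held equal for Mki67 and Top2a alone, by drawing 5000 UMIs from each epithelial cell that had them. This left out 412 of 1297 Het and 342 of 1199 KO cells. The epithelial rule and the marker groups were read before the draw. The Het share was then 1.04% ± 0.294 (SD, n = 2) and the KO share 4.31% ± 1.1 (SD, n = 3, exact permutation p = 0.1, the smallest possible), compared with 5.3% and 14.4% in the same cells before the draw. With at least 2 UMIs of each gene the shares were 1.95% and 6.7%. By Mki67 alone they were 8.28% and 18.8%, and by Top2a alone 15.2% and 24.2%. In each of these the groups did not overlap. A looser definition, UMIs of at least 5 genes of the G2 and M phase list, took in 62.2% ± 7.16 (SD, n = 2) of Het epithelial cells, whereas in KO it took in 68.6% ± 8.11 (SD, n = 3), and there the groups overlapped.

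The ratio between the groups was largest among neither-marked cells. Their cycling share was 0.686% and 1.72% in Het, against 6.25%, 12.1% and 11.3% in KO, a mean of 1.2% ± 0.73 (SD, n = 2) against 9.86% ± 3.15 (SD, n = 3) and a ratio of 8.2 (exact permutation p = 0.2). These cells had median depths of 11436 and 11838 UMIs in Het and 6120, 12444 and 13430.5 in KO. The cycling ones among them had medians of 27140 and 45063 UMIs in Het and 44144, 40393 and 32335 in KO. The part of depth in this share was not tested. Drawn down to 5000 UMIs, neither-marked cycling cells were 0 of 354 in Het1, which allows a share of up to 0.847%, and 3 of 284 (1.06%) in Het2. In KO they were 4 of 147 (2.72%), 9 of 155 (5.81%) and 14 of 246 (5.69%), so the Het mean of 0.528% rests on 3 cells of 1 library, beside a KO mean of 4.74%. Airway-marked cells cycled by the rule in 6.1% and 6.99% of Het and 12%, 13.3% and 23.2% of KO cases. Their depth differed as well, with medians of 2449.5 and 4421 UMIs in Het and 10742, 9184 and 21104 in KO, and its part in that share was not tested. Among mesenchymal-marked cells the shares were 16.7% and 9.46% in Het and 6.9%, 11.1% and 5.36% in KO, and the groups overlapped. Whether the gap differs between these marker groups was not tested.

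**Figure D2:**
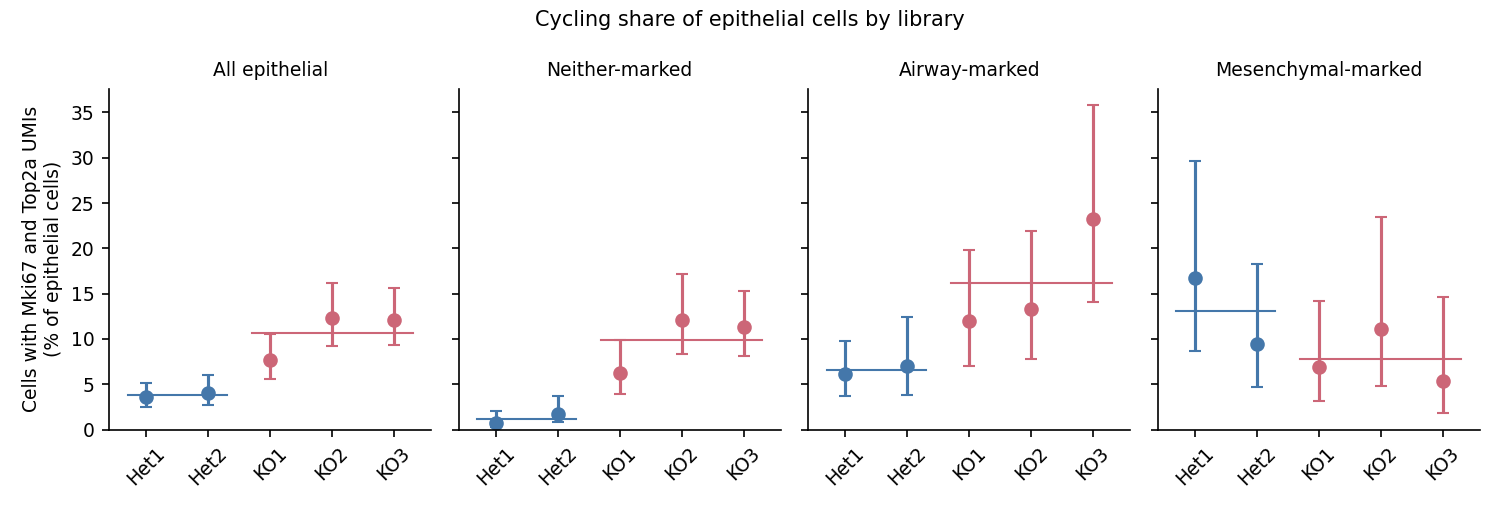
Percent of epithelial cells with UMIs of both Mki67 and Top2a in each library (points, with Wilson 95% intervals) and each group's mean (lines), for all epithelial cells and for the 3 marker groups. The KO points lie above the Het points for all, neither-marked and airway-marked cells, and overlap them for mesenchymal-marked cells.

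Other lineages of the same libraries gave smaller gaps. By the same pair of genes, 16.9% ± 0.972 (SD, n = 2) of Het immune cells were cycling, as were 18.7% ± 1.4 (SD, n = 3) of those in KO, and the groups overlapped. Endothelial shares were 11.5% ± 0.62 (SD, n = 2) for Het against 16.6% ± 2.31 (SD, n = 3) for KO, without overlap. Mesenchymal shares were 5.39% ± 1.74 (SD, n = 2) against 4.56% ± 2.48 (SD, n = 3), with overlap. The difference itself was tested within libraries, as the log-odds of cycling in epithelial cells minus that in the other lineage. It was higher in KO than in Het by 0.948 against immune, 0.66 against endothelial and 1.36 against mesenchymal cells. All 3 KO libraries exceeded both Het libraries in each of these 3 tests, with an exact permutation p of 0.1, the smallest possible, and 0.1 after Benjamini-Hochberg adjustment.

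The cell-cycle programme of the members was described against other epithelial cells of the same library, with no test, since the rule chose the members on this contrast. The 53 genes of the G2 and M phase list summed to 5920 and 5280 CPM in Het members, against 4170, 5980 and 6560 CPM in KO members. In the other epithelial cells they summed to 1630 to 1880 CPM, so the members stood 2.53 to 4.04 times as high. The 43 genes of the S phase list stood 1.86 to 2.09 times as high, at 970 to 1280 CPM against 483 to 616. Among the members the groups overlapped for the G2 and M list, and for S phase both Het values (970 and 1070 CPM) lay just below the KO values (1280, 1140 and 1180).

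Many members carried genes of multiciliated cells, which are known to reuse parts of the cell-cycle machinery while they build cilia without dividing. At least 3 of 10 ciliated genes were found in 16 of 26 and 10 of 23 Het members (61.5% and 43.5%), against 12 of 34, 11 of 42 and 10 of 50 KO members (35.3%, 26.2% and 20%). These 59 cells held Foxj1, the master regulator of motile cilia, in 53, Deup1, which builds the many centrioles, in 51, Ccno in 50 and Mcidas, an early regulator, in 44. In them Mki67 was 32.1 and 33.6 CPM in Het and 72.4, 34.1 and 71.2 CPM in KO, whereas the other members had 298 and 197 in Het and 222, 218 and 207 in KO. Top2a was 157 to 296 CPM in the ciliated-marked and 257 to 330 CPM in the other members. Ciliated-marked epithelial cells outside the rule had Top2a at 112 to 210 CPM with Mki67 at 0 to 3.42 CPM, while the remaining cells outside it had 4.32 to 12.3 CPM of Top2a. The rule itself leaves no Mki67 in an outside cell that holds Top2a, so these outside levels are a description only. The share of members that were dividing was not measured.

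Without ciliated-marked cells the cycling share was 1.68% and 2.69% in Het, against 5.66%, 10.4% and 10.5% in KO. The mean was 2.19% ± 0.715 (SD, n = 2) against 8.84% ± 2.76 (SD, n = 3), a ratio of 4.05 (exact permutation p = 0.2). The KO libraries again all lay above the Het libraries.

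Genes were compared between the groups by summing UMIs over the members of each library (1379246 to 2493132 per library) and fitting edgeR's quasi-likelihood test to 10900 genes. At a Benjamini-Hochberg adjusted p under 0.05, 209 genes were called (1.92%), of which 106 were higher in KO (0.972%) and 103 lower (0.945%). The groups did not overlap for 37.8% of all genes tested. The number of calls moved with the libraries: 0 remained in edgeR with sex as a covariate (1034 at an unadjusted p under 0.05), 0 without KO1 (1875) or without KO2 (1446) and 23 without KO3, against 364 without Het1 and 614 without Het2. In the neither-marked members alone 7 of 7440 genes were called (0.0941%).

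The 12 genes with the largest rises all had most of their KO UMIs in neither-marked members, from 72.9% to 95.9%. Those members held 53.8% of all KO member UMIs. Col15a1, a basement membrane collagen (chromosome 4, 47208161 to 47313167, GRCm38), was at 1.81 and 10.2 CPM in Het and 53.9, 46.1 and 30.6 CPM in KO. It rose by 2.91 ± 0.506 (SE) on the log2 scale (edgeR adjusted p = 0.0333), and 87.5% of its KO UMIs were in neither-marked members. Cd36, the fatty acid scavenger receptor of alveolar type 2 cells, was at 22.9 and 21.8 CPM in Het and 122, 83.2 and 121 CPM in KO (log2 fold change 2.27 ± 0.246, edgeR adjusted p = 0.00805). Sftpa1, a surfactant protein, was at 99.5 and 334 CPM against 1070, 719 and 1160 CPM (2.19 ± 0.441, edgeR adjusted p = 0.0457). Foxp2, a transcription factor of distal lung epithelium, was at 45.2 and 103 CPM against 343, 409 and 259 CPM (2.19 ± 0.343, edgeR adjusted p = 0.0275). Cldn6, a claudin of embryonic epithelia, was at 11.5 and 4.37 CPM against 27.0, 39.9 and 43.3 CPM (2.18 ± 0.383, edgeR adjusted p = 0.0353). Groups without overlap were a condition for naming these genes. Tinag, Rbpjl, Ptprm, Cdh16, Afap1l1 and Slco4c1 were also among the 12, with log2 fold changes of 2.20 to 2.46. Within neither-marked members all 12 had positive log2 fold changes, from 0.14 for Slco4c1 to 2.73 for Cldn6, and none was called (lowest edgeR adjusted p = 0.168). These cells are part of the sum that chose the 12 genes, so the signs are no separate evidence. Their Het values rest on 9 cells.

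Of the 12 largest falls, 10 had most of their Het UMIs in mesenchymal-marked and 2 in airway-marked members. Of all Het member UMIs, mesenchymal-marked members held 25.9% and airway-marked members 61.3%. Actc1, the cardiac form of muscle actin (chromosome 2, 114047282 to 114053548), was at 127 and 13.8 CPM in Het and at 0.627, 0 and 0.471 CPM in KO, a log2 fold change of -7.51 ± 1.142 (edgeR adjusted p = 0.0268). It was found in 4 Het members, and 1 of them held 90.9% of its Het UMIs. The smooth muscle genes Cnn1, Actg2, Myh11, Synpo2 and Des fell likewise, and 98.2% to 99.4% of their Het UMIs lay in mesenchymal-marked members. C3, a complement protein, was at 168 and 232 CPM in Het and 11.3, 6.11 and 25.4 CPM in KO (log2 fold change -3.81 ± 0.418, edgeR adjusted p = 0.00805), with 82.8% of its Het UMIs in mesenchymal-marked members. Saa3, an acute phase protein, was at 149 and 102 CPM against 0.627, 14.3 and 12.2 CPM (-3.69 ± 0.508, edgeR adjusted p = 0.0207), and 99.5% of its Het UMIs were in airway-marked members. Piezo2, a stretch-gated channel, fell too, with 90.6% of its Het UMIs in 1 airway-marked cell. Cd34, Slpi and Fn1, which completed the 12, had over 90% of their Het UMIs in mesenchymal-marked members. Of the 12, only C3, Saa3 and Fn1 passed the low-count filter in neither-marked members. None of the 24 genes was called in every fit that left out 1 library. No gene could be, since the fits without KO1 and without KO2 called 0 genes.

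**Figure D3:**
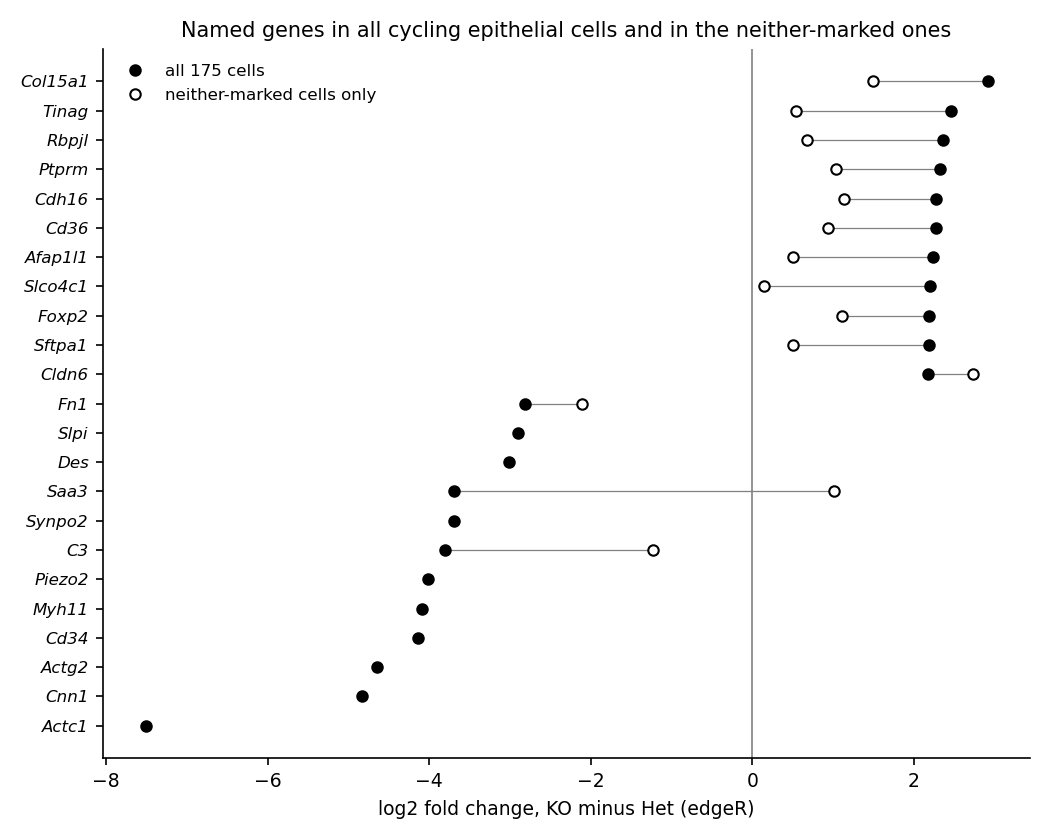
edgeR log2 fold change, KO minus Het, of 11 of the 12 genes with the largest rises and the 12 with the largest falls, in all cycling epithelial cells (filled) and in the neither-marked ones alone (open, where the gene was tested). The rises lie above 0 in both, though the open set is part of the filled one. Of the falls, 9 have no open point, and Saa3 changes side.

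The alveolar type 2 genes had more calls than any other list. Of 18 tested, 7 rose (Cd36, Abca3, Lpcat1, Cldn18, Sftpb, Lamp3 and Sftpa1) and 1 fell (Sftpd), with a median log2 fold change of 1.54 beside -0.01 over all genes tested. Sftpc, the surfactant precursor that defines these cells, was at 3960 and 11300 CPM in Het and 21400, 22900 and 26600 CPM in KO. Its log2 fold change of 1.63 ± 0.346 missed the threshold (edgeR adjusted p = 0.0501), although the groups did not overlap. Abca3, the lipid transporter of lamellar bodies, was at 71.1 and 83.7 CPM against 231, 190 and 215 CPM, and Lamp3, their membrane protein, at 25.9 and 68.4 CPM against 163, 168 and 247 CPM. Sftpd, another surfactant protein, fell from 249 and 248 CPM to 124, 91.3 and 140 CPM. Airway-marked members held 72.8% of its Het UMIs, beside 61.3% of all Het member UMIs. Within neither-marked members its log2 fold change was -1.52 (edgeR adjusted p = 0.0617). In neither-marked members the median log2 fold change of the 18 genes was 0.09, and none was called. There Sftpc was at 45800 and 52700 CPM in Het and 45100, 38100 and 43400 CPM in KO.

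The genes of distal tip progenitors, the dividing cells at the ends of growing airways, gave 4 rises and no fall among 12 tested, with a median of 0.75. Sox9, their defining transcription factor, was at 36.8 and 42.9 CPM in Het and 70.2, 83.2 and 89.9 CPM in KO (log2 fold change 1.03 ± 0.199, edgeR adjusted p = 0.0444). Fgfr2, the receptor for the growth factor Fgf10, was at 46.4 and 68.4 CPM against 189, 207 and 195 CPM (1.79 ± 0.207, edgeR adjusted p = 0.00904). Hmga2 and Igf2bp1, which are high in fetal progenitors, rose by 1.98 and 1.07 on the log2 scale. All 4 had 64.2% to 83.7% of their KO UMIs in neither-marked members, which held 53.8% of all KO member UMIs. The median of the 12 genes within neither-marked members was 0.56, with no call. Of 16 genes of lung epithelial identity 4 rose (Foxp2, Cldn6, Irx2 and Elf5) and none fell, with a median of 0.52. H19, a growth-regulating imprinted RNA, was at 462 and 744 CPM against 745, 863 and 759 CPM (0.39 ± 0.199, edgeR adjusted p = 0.316).

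Alveolar type 1 genes gave 1 rise, Vegfa, among 16 tested. Hopx was at 288 and 436 CPM in Het and 526, 754 and 652 CPM in KO (log2 fold change 0.83, edgeR adjusted p = 0.0805), and Ager, a receptor of type 1 membranes, at 276 and 513 CPM against 824, 732 and 710 CPM (0.94, edgeR adjusted p = 0.075). The list's median was 0.45 in all members and -0.74 in neither-marked ones, so its sign differed between the whole and the neither-marked members, as did that of Vegfa (1.12 and -0.06).

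Of 7 airway secretory genes tested 1 fell, with a list median of -1.33. Scgb1a1, the club cell secretory protein (chromosome 19, 9083636 to 9087958), fell from 13200 and 6560 CPM in Het to 3040, 980 and 1260 CPM in KO (log2 fold change -2.49 ± 0.435, edgeR adjusted p = 0.0346). Airway-marked members held 99.9% of its Het UMIs. Scgb1a1 and Foxj1 are among the genes that set that mark, so the share for Scgb1a1 is largely fixed by the cutoff. Within airway-marked members Scgb1a1 was at 17600 and 14700 CPM in Het and 6720, 2910 and 3710 CPM in KO. The gap was also present inside that group, whose cells were chosen partly on this gene, and it was not tested there. Foxj1 was at 377 and 306 CPM in Het and 132, 170 and 222 CPM in KO (-0.97 ± 0.223, edgeR adjusted p = 0.0607), and none of 10 ciliated genes was called (median -0.90). Inside airway-marked members Foxj1 was at 502 and 686 CPM in Het and 289, 505 and 655 CPM in KO, and the groups overlapped. Of 2 basal genes tested Krt14 fell, with all of its Het UMIs in mesenchymal-marked members. No neuroendocrine gene passed the low-count filter.

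Markers of other cell types were summed over the members of each library. The 10 mesenchymal genes summed to 2500 and 10800 CPM in Het members, against 1880, 1170 and 1380 CPM in KO, with Pdgfra at 0 by the rule, and 3 of 8 tested fell (Acta2, Mgp and Eln). The mesothelial list summed to 648 and 1520 CPM against 532, 408 and 368 CPM, and 1 of 8 genes fell (Upk3b). The immune list ranged from 116 to 401 CPM in Het and 71.4 to 2740 CPM in KO, the last in KO3, with Ptprc at 0 by the rule and none of 10 genes called. The endothelial list ranged from 47.3 to 162 CPM, with Cdh5 and Pecam1 at 0 by the rule and 1 of 3 genes lower (Kdr). The erythroid list ranged from 828 to 9520 CPM, with no call among 5 genes. Their part in the gene results was not tested beyond the values in neither-marked members.

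Genes of the cell cycle itself gave 1 call. None of 39 S phase genes was called (median log2 fold change 0.35, lowest edgeR adjusted p = 0.124, with 30 of 39 positive). Pcna, the sliding clamp of DNA replication, was at 60.9 and 67.7 CPM in Het and 95.9, 70.5 and 85.7 CPM in KO (edgeR adjusted p = 0.313). Of 53 G2 and M genes only Tubb4b, a tubulin that is also abundant in cilia, was called, and it fell from 1520 and 1310 CPM to 600, 720 and 854 CPM, with 89.2% of its Het UMIs in airway-marked members. Hmgb2, the list's other abundant gene, was at 869 and 789 CPM in Het and 837, 1180 and 1460 CPM in KO, and the groups overlapped. The list's median was 0.31 in all members and -0.09 in neither-marked ones, and that of the S phase list -0.16 in neither-marked ones.

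None of the 9 listed targets of the miR-16 family, miR-322 and miR-503 included, passed the test between the groups of members (median log2 fold change -0.10, lowest edgeR adjusted p = 0.0826). The D-type cyclins, which open G1, had all KO values below both Het values, with no call. Groups without overlap were found for 5 of the 9 targets and 11 of the 28 genes of G1 control, beside 37.8% of all genes tested. Ccnd1 was at 95.3 and 76.4 CPM in Het and 58.9, 44.0 and 51.8 CPM in KO (-0.74 ± 0.197, edgeR adjusted p = 0.0826). Ccnd2 was at 317 and 346 CPM against 258, 210 and 206 CPM (edgeR adjusted p = 0.107), and Ccnd3 at 96.5 and 130 CPM against 75.2, 82.3 and 86.6 CPM (edgeR adjusted p = 0.206). In neither-marked members their log2 fold changes were -1.32, 0.98 and -0.09, of mixed sign and not called. Cdk6, their partner kinase, was at 53.1 and 62.6 CPM against 79.0, 58.7 and 52.7 CPM, and Ccne1, the E-type cyclin, at 7.24 and 14.6 CPM against 13.2, 7.75 and 8.95 CPM, both with overlapping groups. Among 28 genes of G1 control no call was made (median 0.02). Cdkn1c, an inhibitor of cyclin-dependent kinases, was at 999 and 1160 CPM in Het and 642, 774 and 541 CPM in KO (-0.73 ± 0.167, edgeR adjusted p = 0.0602), and Cdkn1a, the inhibitor induced by p53, at 149 and 156 CPM against 133, 105 and 104 CPM (-0.42 ± 0.176, edgeR adjusted p = 0.225). None of 13 genes of DNA damage and stress was called (median -0.16).

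In the neither-marked members, which numbered 9 in Het and 75 in KO, 4 of the 7 calls were also among the 209. Col18a1, the collagen precursor of endostatin, rose from 10.6 and 37.4 CPM to 194, 190 and 173 CPM (log2 fold change 2.62 ± 0.378, edgeR adjusted p = 0.0211). Fabp5, a fatty acid binding protein, fell from 1880 and 1390 CPM to 579, 554 and 794 CPM (-1.32 ± 0.201, edgeR adjusted p = 0.0238). S100a6, a calcium-binding protein, and Col6a1, a collagen, fell by 1.47 and 2.38 on the log2 scale. The mitochondrial transcripts mt-Co2, mt-Atp6 and mt-Cytb rose by 0.66, 0.61 and 0.79. The Het values of the 7 genes rest on 3 and 6 cells.

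The genotype difference was then compared between cycling and other epithelial cells of the same libraries, in 1 edgeR fit with the library as a block. Of 13224 genes 665 (5.03%) differed at an adjusted p under 0.05, with 359 terms above 0 (2.71%) and 306 below (2.31%). Scaled by library size alone, which moved the median of all genes to -0.15, the share of terms above 0 was 33.8% in place of 54.0%, and in neither-marked cells 2 genes were called. The count was 270 without Het1, 318 without KO1 and 241 without KO2. Alveolar type 2 genes had 16 of 18 terms above 0 past the threshold, and alveolar type 1 genes 8 of 16. Sftpc averaged 7030 CPM in cycling and 51400 in other epithelial cells of Het, and 22300 and 26600 CPM in those of KO, a term of 2.82 ± 0.388 (edgeR adjusted p = 0.004). Summed over the alveolar type 2 list, members stood at 0.0879 and 0.252 times the level of other epithelial cells in Het, against 0.908, 1.02 and 0.762 times in KO. Het members thus held far less of these transcripts than other Het cells, which was not so in KO.

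**Figure D4:**
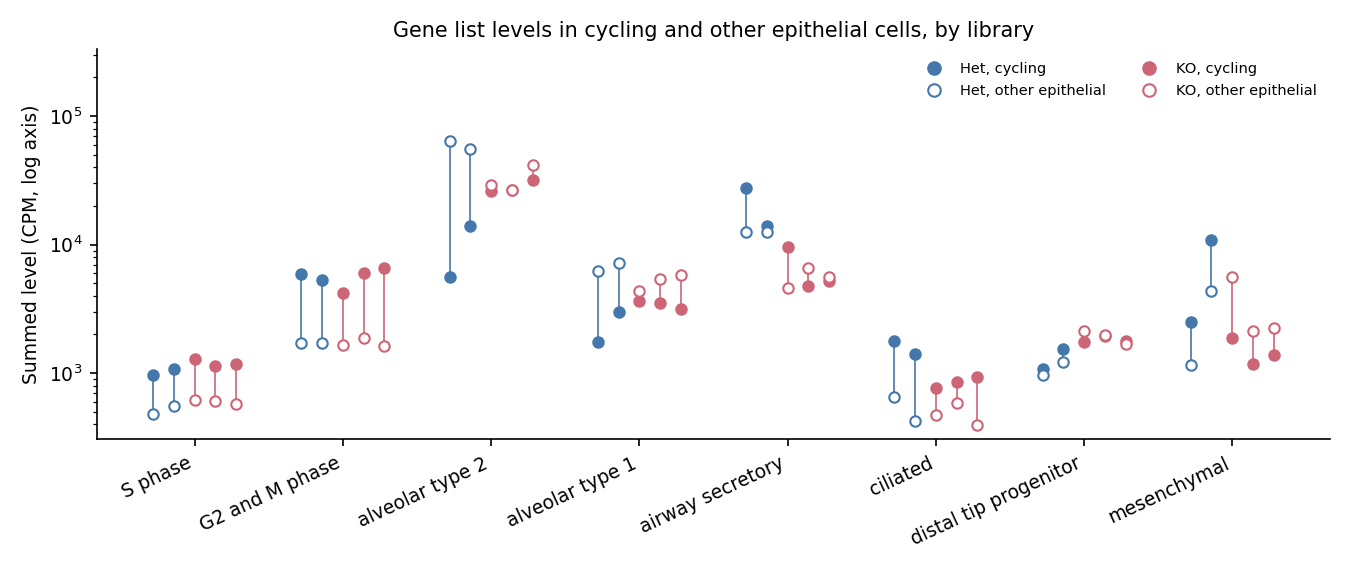
Summed level of 8 gene lists (CPM, log axis) in cycling (filled) and other (open) epithelial cells, with 1 joined pair per library (Het blue, KO red, in the order Het1, Het2, KO1, KO2, KO3). The alveolar type 2 pairs lie far apart in both Het libraries and close together in the KO libraries, while the G2 and M phase pairs lie apart in all 5.

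The neither-marked members summed to 56600 and 63200 CPM of alveolar type 2 genes in Het and 55200, 44800 and 52600 CPM in KO, and the other neither-marked cells to 95200 and 89200 CPM in Het and 54700, 40800 and 58400 CPM in KO. In the cells outside the rule all KO values lay below the Het values, as they did in the members. Cdkn1c had a term below 0, with means of 999 and 509 CPM in cycling and other cells of Het and 615 and 642 CPM in those of KO (-1.04 ± 0.146, edgeR adjusted p = 0.00421). Sox9 had a term above 0, with means of 36.8 and 56.0 CPM in Het and 76.6 and 56.5 CPM in KO (1.06 ± 0.232, edgeR adjusted p = 0.0296). H19 averaged 556 and 330 CPM in Het and 745 and 995 CPM in KO (-1.20 ± 0.214, edgeR adjusted p = 0.0126). Terms below 0 were also called for 7 of 9 mesenchymal and 6 of 8 mesothelial genes, and for none of 43 S phase and 53 G2 and M phase genes. Of the 9 listed targets of the miR-16 family 1 was called, Ccnd2 (-0.744 ± 0.179, edgeR adjusted p = 0.0421). Ccnd2 averaged 306 and 201 CPM in cycling and other cells of Het and 211 and 232 CPM in those of KO.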

How the data were processed

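The authors deposited whole-number UMI counts per gene and cell barcode. Cell Ranger 4.0.0 is named in the file headers, and the build mm10 in the submitters' processing notes. The annotation and barcode filter are not given in the sources used here. Libraries were 3′ droplet libraries of 32285 genes, 1 per embryo. UMIs were summed per library over the members and fitted with edgeR 4.0.16 (quasi-likelihood, TMM, filterByExpr, adjusted p under 0.05, two-sided). CPM of single genes used TMM-scaled sizes, and CPM of lists and marker groups used UMI totals. Shares used exact permutation over 10 assignments of libraries. Doublets were scored (0.8% per 1000 cells, 2 simulated doublets per cell) and kept in the main results. The members, gene lists and tests were chosen with earlier results of these data known, and the marker groups after their values were seen. Ddit3 was left out of the stress list because 2 genes share its symbol. Named genes were the 12 largest changes in each direction among calls with separate groups, the higher of them averaging 20 CPM or more, without sex-linked, haemoglobin, mitochondrial and rule genes, the 4 largest terms in each direction, called or most abundant list members, and a fixed set that includes Zswim8, cyclins and cell type genes. Not every gene the rule names is reported here. The neither-marked calls were named after their values were seen. Fits were repeated with DESeq2 1.42.0, other scalings, filters and cell rules, thinned cells, sex as a covariate, replicate number as a block, and without each library. The steps were tested on simulated counts with 200 changed genes. At a log2 change of 1 the fit of members called 16.5% of them, with 7 false calls among 40. At a change of 2 it called 82.5%, with 14 false calls among 179. The genotype by cycling term called 12% and 67%, with 3 false calls among 27 and 11 among 145. A gene that was not called may therefore still differ. Coordinates are GENCODE's (GRCm38) and sequences RefSeq's.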

Additional observations from a re-analysis of the deposited data

Results flagged for a closer look

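Cycling and other epithelial cells differed in the genotype comparison by the test of the difference itself, the genotype by cycling term, for 665 genes. Among those with at least 20 CPM in a group's mean, the lowest 4 terms, on the log2 scale, were those of muscle genes: Actc1 at -10.46, Actg2 at -7.52, Cnn1 at -7.02 and Myh11 at -5.68. Actc1 averaged 66.0 CPM in cycling and 3.77 in other epithelial cells of Het, and 0.345 and 33.1 CPM in those of KO, and 1 Het1 member held 90.1% of the UMIs of all members. For the other 3 genes 1 member held 66.5% to 76.1%.

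The highest 4 terms were those of Cavin4 at 3.44, Krt13 at 6.57, Ngp at 6.57 and Camp at 6.61. Cavin4, a gene of caveolae, averaged 1.46 CPM in cycling and 22.4 in other cells of Het, and 13.2 and 17.5 CPM in those of KO, and was found in 47 members. Krt13, a keratin of layered epithelia, stood at 53.5 CPM in the other cells of Het2 and at 0.192 to 2.61 CPM in those of the other libraries. Ngp and Camp, granule proteins of neutrophils, had 98.6% and 97.2% of their member UMIs in 1 KO3 cell, the one with 2753 UMIs of S100a8.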

How the results depend on the processing

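The cycling share and its difference from other lineages kept their direction under every alternative run except in mesenchymal-marked cells alone (-5.27 percentage points), and no exact test could pass 0.05. In the other settings KO minus Het was 1.36 to 14.3 points, and it was 6.07 to 8.37 points with 1 library left out.

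The 209 genes called in members became 388 with DESeq2, 1381 without a low-count filter, 348 with a stricter one, 917 in strict epithelial cells (Epcam with Cdh1, Nkx2-1 or Cldn7) and 987 without mesothelial-marked cells. They became 62 with stricter quality limits, 117 without doublets, 109 with at least 2 UMIs of each gene and 7 in neither-marked cells. Calls numbered 0 with sex as a covariate, 0 without mixed cells, those with at least 3 genes of another lineage's list (536 at an unadjusted p under 0.05, 4268 genes tested) and 0 after thinning (457, 2997 genes tested). Leaving out 1 library gave 0 to 614 calls.

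The 665 terms became 372 with DESeq2, 1433 without a filter, 164 with sex, 35 with at least 2 UMIs, 389 in strict epithelial cells, 48 without mixed cells, 1168 without mesothelial-marked cells and 2 in neither-marked cells, and 241 to 884 with 1 library left out. Where not stated, the cause was not tested.

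With the replicate number as a block, 152 genes were called in members (100 shared with the 209) and 1169 terms. Same-numbered libraries had correlations of -0.131 and 0.0266 in their deviations from the group means. The deviations of Het1 and Het2 mirror each other by construction, so these values cannot decide whether libraries pair. Under the block the terms of Ngp and Camp turned to -3.83 and -0.221.

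Log2 fold changes turned in neither-marked cells for Saa3 (1.01), Vegfa (-0.0581), Mgp (0.336) and Eln (0.261), and in strict epithelial cells for Fn1 (0.348), S100a9 (-2.78), S100a8 (-2.97), Cav1 (0.963) and Igf2 (0.998). The neither-marked Het values rest on 9 cells. Mgp and Eln are among the mesenchymal genes whose UMIs kept cells out of that group, so their turn there is not independent of the cutoff.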
